A study of Rattus norvegicus with 9 samples.

Results

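Hox genes encode transcription factors that mark position along the body axis, and their levels were read here from the spinal cord of rats with or without a contusion injury. The genes were taken as the protein-coding rows whose symbol is Hox, a cluster letter a to d and a number, with the row of highest total kept for a symbol listed more than once. This gave 39 genes of the 30507 rows in the files, of which 22777 rows had a count in at least 1 library. Only Hoxc5 stood on more than 1 row, and its second row held between 0 and 15 counts per library. All rats were female wild-type Sprague-Dawley rats, 8 weeks old on arrival, and their cord was collected at 35 days post-injury (dpi). The Sham group had a laminectomy only according to the study's methods, and the labels call these rats untreated. The SCI group had a contusion of 150 kdyn at T10 and carried an electrode plug on the neck without an electrode. The SCI + SCS group had the same contusion and received stimulation for 2 h each day, starting at 1 dpi, from epidural contacts at T11-T12 (10 kHz, 0.12 mA, pulse width 30 µs). Each group had 3 rats and 1 library per rat, and rats with implanted but silent electrodes were not analysed here. The study's methods give segments T9-T11 as the tissue of every rat and give no measured position for any single library. An injured and a sham-operated cord differ in cell makeup, and in such bulk tissue fewer cells of a type and less RNA per cell cannot be told apart.

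The mammalian Hox genes lie in 4 clusters, HoxA to HoxD, each a row of genes in one orientation. A gene's paralog number gives its place in the row. Low numbers lie at the 3' end and are switched on early and far forward in the embryo, at the level of the hindbrain. High numbers lie at the 5' end and are used progressively further back, so that in the spinal cord Hox4 to Hox8 genes belong to cervical and brachial levels, Hox8 and Hox9 genes to thoracic levels, Hox10 and Hox11 genes to lumbar levels, and Hox12 and Hox13 genes to the sacral and tail end. Much of this pattern persists in adult cord, where it differs between neuron classes, glia and connective tissue cells.

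The 9 libraries held between 62844376 and 88358570 counts on genes, and the Hox genes took between 26722 and 49129 of them. A level of 3 counts corresponded to between 0.0341 and 0.0472 CPM (counts scaled to library size, with TMM normalization). These floors cover counting error only. The 10 listed forebrain and midbrain genes summed to between 1.26 and 2.83 CPM in the 9 libraries, largely from En1 and En2. En1 had 25 to 121 counts per library and En2 had 13 to 67, all above the floor. Certain libraries stood apart in other tissue markers. Skeletal muscle genes (5 of 8 listed genes were found) summed to 2990 CPM in SCI replicate 1 and 873 CPM in SCI replicate 3, against at most 41.1 CPM in any other library. Sensory neuron genes of the dorsal root ganglion summed to 410 CPM in Sham replicate 2, against at most 76.1 CPM elsewhere. Sham replicate 1 had the highest sum of neuron genes, 6190 CPM, and of motor neuron genes, 95.9 CPM against 37.9 and 34.4 CPM in the other Sham libraries. It also had the lowest sum of fibroblast genes, 380 CPM against 1150 and 1850 CPM. Sham replicate 1 was also the library that stood apart in Hox genes, as described next, and Hox results that rest on it are given with and without it.

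Levels were compared between genes as FPKM, which divides by gene length and library total. Summed over each paralog number, the Hox profile peaked at paralog 8 in all 9 libraries. Paralog 8 held between 24.7% and 41.1% of the summed Hox FPKM, and the level was near 0 beyond paralog 10 in every library but Sham replicate 1. Paralog 1 held between 0.321% and 1.93%. Paralog 2 held between 2.98% and 10.2%, below paralog 5 in the 3 Sham libraries and above it in the 6 libraries of injured cord. Paralog 9 took between 12.9% and 16% of the Hox FPKM and paralog 10 between 6.18% and 10.4% outside Sham replicate 1, where paralog 10 reached 17.1%. Paralog 11 was at or under 0.0288% in 8 libraries and at 2.68% in Sham replicate 1. By cluster, HoxB was the largest contributor, with 45.5% to 58.4% of the Hox FPKM, and HoxA, HoxC and HoxD each held between 9.79% and 22.1%.

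**Figure D1:**
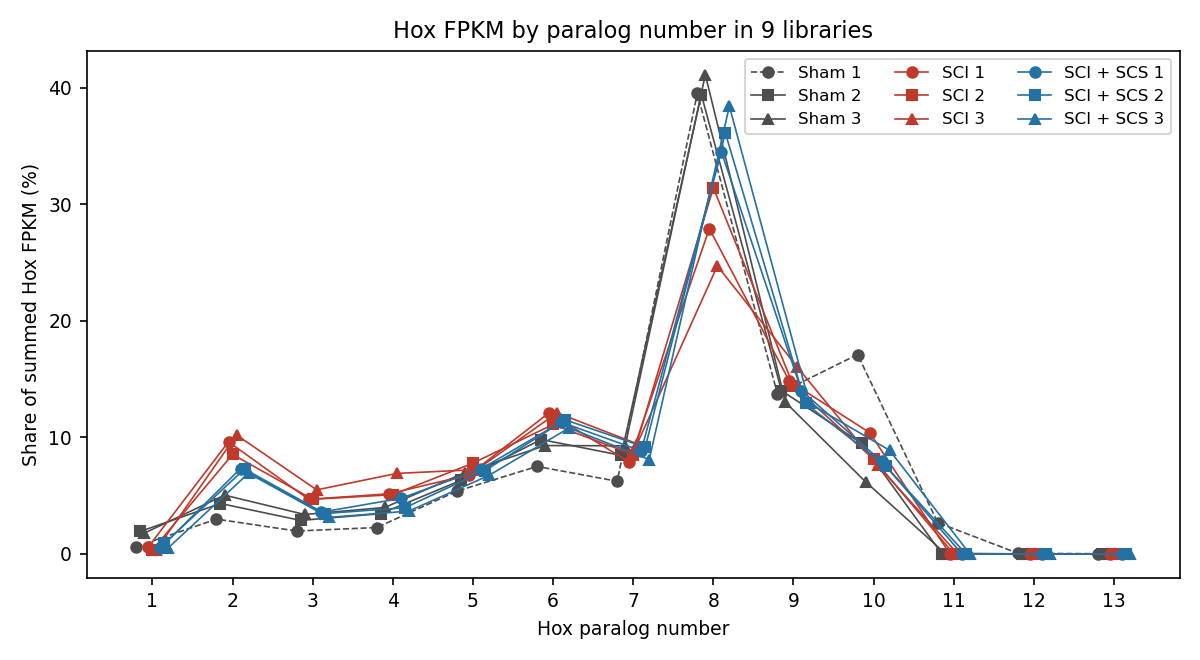
The x axis gives the Hox paralog number and the y axis the share of the summed Hox FPKM in percent, with 1 line for each of the 9 libraries (dashed for Sham replicate 1). All lines peak at paralog 8, and Sham replicate 1 lies above the others at paralogs 10 (17.1%) and 11 (2.68%).

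Hoxb8, a gene of thoracic and neighbouring levels, had the highest level of all 39 genes and made most of the peak. Its FPKM was 124, 76.2 and 64.2 in the Sham libraries, 36.0, 45.1 and 27.5 in the SCI libraries and 64.9, 71.0 and 86.3 in the SCI + SCS libraries. The SCI libraries lay below all others, and the Sham and SCI + SCS libraries overlapped. The next highest were Hoxb6, with 17.7 to 27.5 FPKM over the 9 libraries, and Hoxd8, with 11.9 to 26.3 FPKM. In HoxA the highest mean was that of Hoxa9, between 11.3 and 14.7 FPKM, and in HoxC that of Hoxc10, between 7.92 and 29.1 FPKM. At the other end of the clusters, Hoxb1 did not exceed 0.580 FPKM in any library. Hoxa3, Hoxd3, Hoxa4, Hoxb4, Hoxd4 and Hoxa6 lay between 0.129 and 3.78 FPKM. The row of Hoxa3 spans Hoxa4, Hoxa5 and Hoxa6 in the files, so how reads were divided among these 4 genes is uncertain.

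The genes of paralogs 11 to 13 were counted almost entirely in Sham replicate 1. Hoxc11 had 726 counts there, 10 and 0 counts in the other Sham libraries, 6, 0 and 0 in the SCI libraries and 4, 5 and 0 in the SCI + SCS libraries. Hoxa11 had 579 counts there, 8 counts in SCI replicate 1 and 0 counts in the other 7 libraries. Hoxd11 had 236 counts there and 0 counts in the other 8 libraries, a count of 0 that allows levels up to the floor of 3 counts. Hox11 genes pattern the lumbar cord and the motor neurons of the hindlimb. Hoxc12 had 15 counts and Hoxd13 had 10 counts in Sham replicate 1, and both had 0 counts in the other 8 libraries. Hoxa13, Hoxb13, Hoxc13 and Hoxd12 had 0 counts in all 9 libraries. Of the 13803 rows with at least 100 counts in Sham replicate 1, 5 (0.0362%) were over 10-fold above every other library in CPM. These were Hoxa11, Hoxc11, Hoxd11, the antisense gene Hoxa11-as with 210 counts, and 1 long non-coding RNA without a symbol on chromosome 10 with 3961 counts. In the other 8 libraries between 0 and 17 rows met the same limits and 0 of them were Hox genes. The row of Hoxa11-as is listed as protein coding and lies beside Hoxa11 on the other strand. Whether reads were counted by strand is not given in the sources used here, so their reads cannot be told apart.

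Hoxd10 was also highest in Sham replicate 1. Its FPKM was 16.2, 0.542 and 0.0192 in the Sham libraries, 2.18, 0.799 and 0.267 in the SCI libraries and 1.14, 0.600 and 1.36 in the SCI + SCS libraries. The highest and the lowest of the 9 values were thus both Sham libraries, with 2438 and 4 counts. Within the SCI group the values ran from 41 to 442 counts, and in the SCI + SCS group from 96 to 195 counts. Hoxd10 and Hoxd11 are neighbours in HoxD, and Hoxa11 is the gene next to Hoxa10 in HoxA.

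The start regions of these 3 genes are printed because they mark the boundary at which the libraries differed. RefSeq's table (GRCr8) held start regions for 20 of the 39 Hox genes, 21 in all, each from 250 bases before to 50 bases after the start of transcription. Capitals mark each CG dinucleotide, in the gene's own direction. The start region of Hoxd10 lies at chr3:80001697-80001996 on the plus strand, that of Hoxd11 at chr3:79992144-79992443 on the plus strand, and that of Hoxa11 at chr4:82676752-82677051 on the minus strand.
Hoxd10: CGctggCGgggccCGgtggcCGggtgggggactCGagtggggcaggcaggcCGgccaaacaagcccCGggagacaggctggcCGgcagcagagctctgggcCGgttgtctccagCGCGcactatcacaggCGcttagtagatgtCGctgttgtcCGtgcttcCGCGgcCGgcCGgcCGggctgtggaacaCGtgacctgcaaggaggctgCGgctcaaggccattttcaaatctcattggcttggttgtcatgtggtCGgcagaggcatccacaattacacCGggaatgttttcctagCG
Hoxd11: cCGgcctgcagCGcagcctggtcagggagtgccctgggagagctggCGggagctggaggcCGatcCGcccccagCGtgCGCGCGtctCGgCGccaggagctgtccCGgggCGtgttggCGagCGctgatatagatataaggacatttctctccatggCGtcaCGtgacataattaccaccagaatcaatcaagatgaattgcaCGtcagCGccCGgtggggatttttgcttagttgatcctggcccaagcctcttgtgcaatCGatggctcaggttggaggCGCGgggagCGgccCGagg
Hoxa11: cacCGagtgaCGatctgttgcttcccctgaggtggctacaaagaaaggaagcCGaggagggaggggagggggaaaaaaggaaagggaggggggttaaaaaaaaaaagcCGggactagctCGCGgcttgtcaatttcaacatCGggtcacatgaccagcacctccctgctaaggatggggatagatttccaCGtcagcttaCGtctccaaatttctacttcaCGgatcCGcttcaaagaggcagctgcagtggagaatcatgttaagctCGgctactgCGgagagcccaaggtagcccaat
They held 24, 25 and 13 CG dinucleotides respectively. Over the 21 Hox regions the median was 22 and the range 6 to 49, against a median of 7 over all 33469 regions in the table, of which 21.0% held at least 22. CpG-rich start regions of this kind are the usual landing sites of Polycomb complexes, which keep Hox genes silent outside their own levels. The letters TTTAT, the core of sites bound by Cdx and 5' Hox proteins, were found on either strand in 7 of the 21 Hox regions and in 42.5% of all regions. None of the 3 printed regions held them.

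The other genes of paralogs 9 and 10 were found in all 9 libraries and were highest in Sham replicate 1, except Hoxc9. Hoxa10 had 22.6, 13 and 6.81 FPKM in the Sham libraries, 5.80, 6.26 and 5.41 FPKM in the SCI libraries and 7.70, 9.41 and 9.74 FPKM in the SCI + SCS libraries. Hoxc10 had 29.1, 12.7 and 7.92 FPKM in the Sham libraries, 11.4, 9.73 and 8.94 FPKM in the SCI libraries and 10.6, 9.51 and 13.8 FPKM in the SCI + SCS libraries. For Hoxc10 the Sham libraries held both the highest and the lowest value, and the 3 groups overlapped. Hoxd9 had 20.0, 8.89 and 5.09 FPKM in the Sham libraries, 5.28, 4.06 and 3.26 FPKM in the SCI libraries and 5.44, 5.25 and 7.13 FPKM in the SCI + SCS libraries. Hoxb9 had 10.6, 7.26 and 3.97 FPKM in the Sham libraries, 0.881, 2.66 and 1.45 FPKM in the SCI libraries and 3.24, 4.14 and 4.29 FPKM in the SCI + SCS libraries. Every SCI library was below every other library for Hoxb9. By contrast, Hoxa9 and Hoxc9 were nearly level. With the groups in the order Sham, SCI, SCI + SCS, Hoxa9 was 13.6 ± 0.926, 12 ± 0.588 and 13.6 ± 0.422 FPKM and Hoxc9 was 9.16 ± 0.0634, 11.5 ± 2 and 11.2 ± 1.08 FPKM (SD, n = 3). Hoxc9, which sets the border between brachial and thoracic motor columns, was thus between 9.11 and 9.23 FPKM in the Sham libraries, while Hoxd10 ran there from 0.0192 to 16.2 FPKM.

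**Figure D2:**
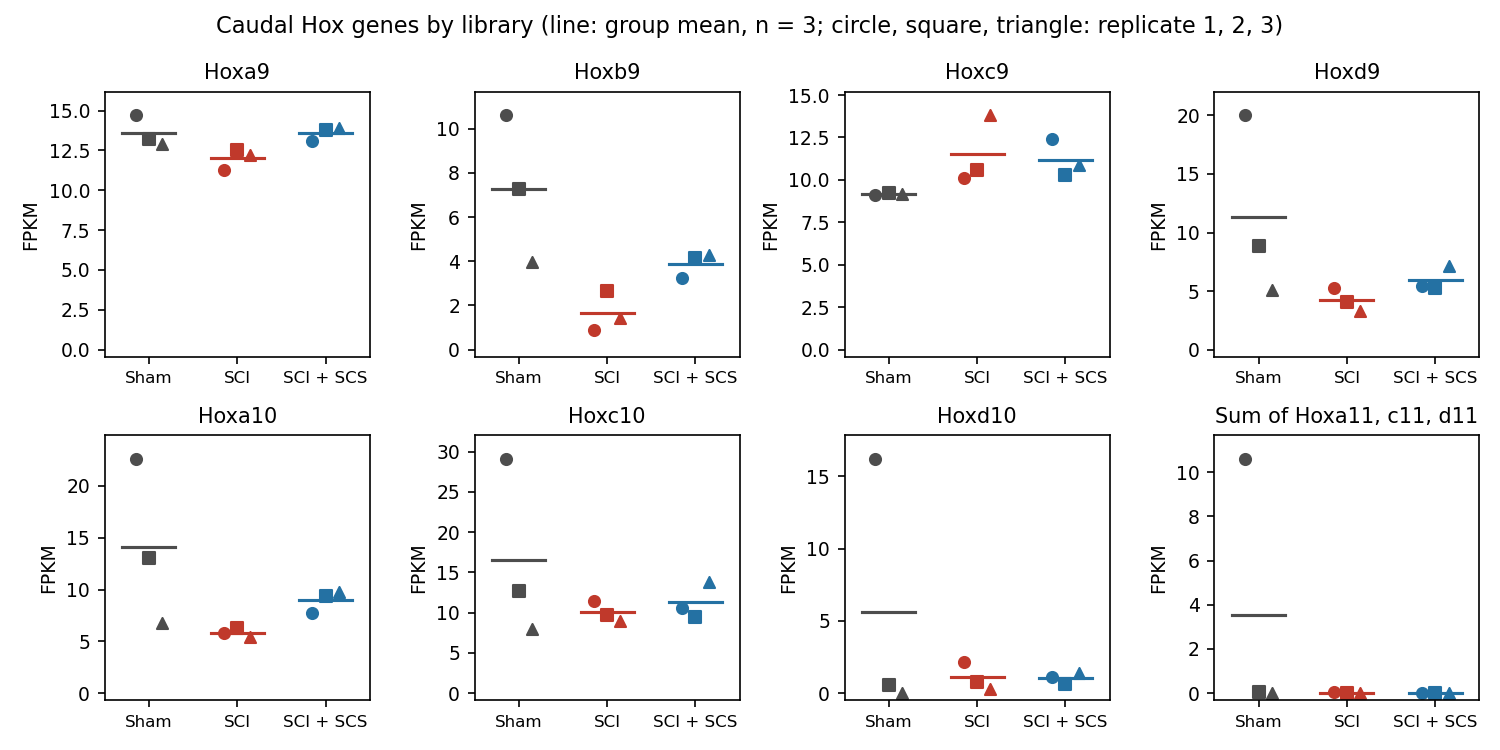
Each panel gives FPKM (linear y axis) of a gene of paralog 9 or 10, or the sum of the Hox11 genes, in the 3 libraries of each group on the x axis, with the group mean as a line. Sham replicate 1 (circle) is the highest point for Hoxb9, Hoxd9, Hoxa10, Hoxc10, Hoxd10 and the Hox11 sum, and not for Hoxc9.

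The profile was reduced to an FPKM-weighted mean paralog number per library, in which a higher number stands for a more caudal set of Hox transcripts. It was 7.78, 7.18 and 7.01 in the Sham libraries, 6.78, 6.79 and 6.57 in the SCI libraries and 6.92, 6.91 and 7.05 in the SCI + SCS libraries. The group values were 7.32 ± 0.402, 6.71 ± 0.123 and 6.96 ± 0.0778 (SD, n = 3). The SCI libraries lay below all others, and the SCI + SCS libraries overlapped with the Sham libraries. The difference of the SCI group from the Sham group was -0.611 paralog numbers, and -0.384 without Sham replicate 1. With log2(FPKM + 1) as weights the SCI libraries ran from 6.23 to 6.34 and overlapped with the Sham libraries, whose lowest was 6.30. The share of paralogs 10 to 13 behaved differently. It was 19.9%, 9.50% and 6.18% in the Sham libraries, 10.5%, 8.12% and 7.61% in the SCI libraries and 7.94%, 7.55% and 8.88% in the SCI + SCS libraries. The SCI group was lower than the Sham group by 3.11 percentage points with all libraries and higher by 0.894 percentage points without Sham replicate 1, so the direction rested on that library. Likewise, the SCI + SCS group differed from the Sham group by -3.72 percentage points, and by 0.286 without Sham replicate 1. All 6 libraries of the injured groups lay between the lowest and the highest Sham library. No test was made on these summary values.

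**Figure D3:**
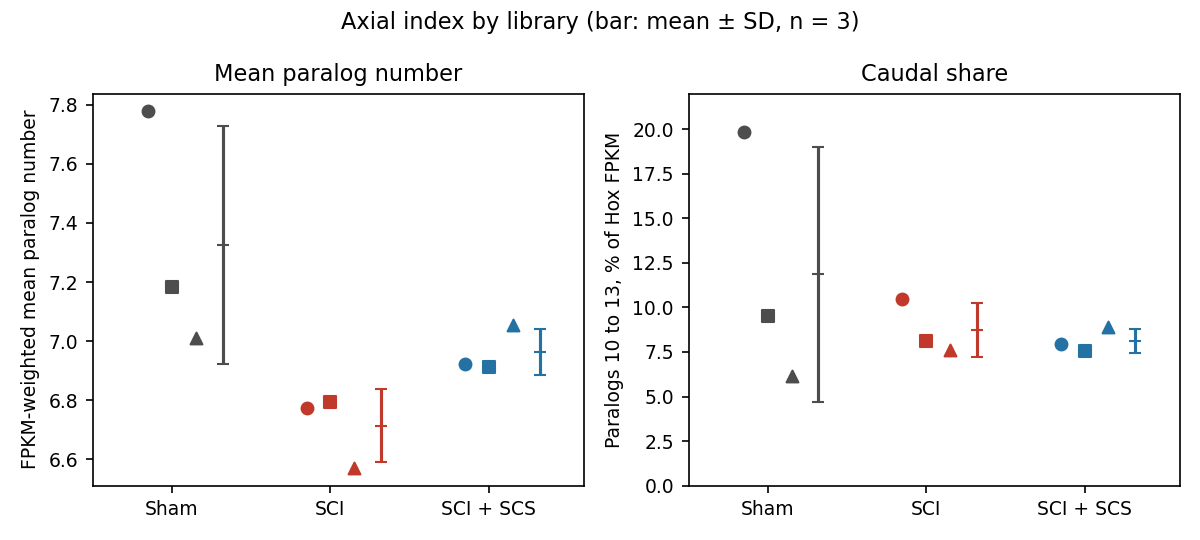
The left panel plots the FPKM-weighted mean paralog number and the right panel the share of paralogs 10 to 13 in percent of Hox FPKM, by group on the x axis, with 1 point per library and the mean ± SD (n = 3) beside it. The SCI libraries (6.57 to 6.79) lie below the rest on the left, and on the right Sham replicate 1 (19.9%) lies above the other 8 libraries (6.18% to 10.5%).

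Of the 39 Hox genes, 30 passed the filter on low counts and were tested between groups on the counts, with edgeR's quasi-likelihood test over all genes and Benjamini-Hochberg adjustment. The other 9 were Hoxa11, Hoxc11, Hoxd11, Hoxc12, Hoxd12 and the 4 Hox13 genes. A gene was called at an adjusted p under 0.05. The comparisons share groups, so their values are not independent of each other.

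In the SCI group, Hox genes changed in both directions relative to the Sham group. Called higher were 5 of 30, Hoxa2, Hoxb2, Hoxc4, Hoxc5 and Hoxc6, beside 24.3% of all 17822 genes tested. Called lower were 9 of 30, Hoxd1, Hoxb5, Hoxa7, Hoxb7, Hoxb8, Hoxc8, Hoxd8, Hoxb9 and Hoxa10, beside 25.0% of all genes. The median log2FC was -0.35 over the 30 Hox genes and 0.02 over all genes. With the study's added threshold of |log2FC|>1, 1 Hox gene was higher (13.4% of all genes) and 5 were lower (13.6% of all genes). These counts were 0 (11%) and 3 (11.7%) without Sham replicate 1. Ordered by number, the called genes of paralogs 7 to 10 were all lower, 7 of 12 tested, with 5 called without Sham replicate 1. Of the 18 tested genes of paralogs 1 to 6, 5 were called higher and 2 lower, their log2FC was positive in 9 and negative in 9, and its median was -0.04. Leaving out Sham replicate 1, 3 of these 18 were called higher and 2 lower. By cluster, all 6 tested HoxD genes had a negative log2FC, from -2.73 to -0.34, and 5 of 6 did without Sham replicate 1. In HoxC, Hoxc4, Hoxc5 and Hoxc6 were called higher and Hoxc8 lower.

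Without Sham replicate 1, 10 Hox genes were called, 3 higher (20.0% of all 18352 genes tested then) and 7 lower (20.6%). Hoxa2, Hoxc4, Hoxb7 and Hoxa10 lost their call. Hoxa10 changed from a log2FC of -1.24 ± 0.40 (SE, edgeR adjusted p = 0.0398) to -0.71, where the edgeR adjusted p was 0.0698. Its adjusted p over 16 alternatives, DESeq2 and limma among them, lay between 0.00437 and 0.115. Hoxd9 moved from -1.43 to -0.70, Hoxc10 from -0.73 to -0.02, and Hoxd10 from -2.33 to 2.04, none of them called by edgeR in either fit. Hoxd9 was called lower under 4 of its 16 alternatives, by DESeq2 (adjusted p = 0.00892), with the replicate block, with all 9 libraries in one fit and without Sham replicate 3. Without Sham replicate 2, 9 Hox genes were called, beside 6091 of 18054 genes tested.

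Among the genes that were higher, Hoxa2 and Hoxb2, which pattern the hindbrain, had 2.39, 2.36 and 3.47 FPKM and 9.42, 9.57 and 8.57 FPKM in the Sham libraries. In the SCI libraries Hoxa2 had 5.31, 5.26 and 4.16 FPKM, and its log2FC was 0.84 ± 0.23 (SE, edgeR adjusted p = 0.0234). In the SCI libraries Hoxb2 had 12.6, 12.4 and 15.4 FPKM, and its log2FC was 0.54 ± 0.12 (SE, edgeR adjusted p = 0.0116). For both genes every SCI library lay above every Sham library. In CPM the same held for 8 Hox genes, beside 5814 of all 17822 genes tested. Hoxc4, Hoxc5 and Hoxc6 are neighbours in HoxC and belong to cervical and brachial levels. Hoxc5 had 1.15, 1.44 and 2.10 FPKM in the Sham libraries, 3.05, 3.45 and 3.96 FPKM in the SCI libraries and a log2FC of 1.14 ± 0.23 (SE, edgeR adjusted p = 0.00806). Hoxc4 had 3.04, 3.34 and 2.94 FPKM in the Sham libraries, 3.67, 4.75 and 5.91 FPKM in the SCI libraries and a log2FC of 0.59 ± 0.16 (SE, edgeR adjusted p = 0.0222). Hoxc6 is given in CPM, because the gene length implied by its counts and FPKM differed 1.95-fold between libraries, against a median of 1.04-fold over 24 well-counted Hox genes. It had 9.40, 14.1 and 14.4 CPM in the Sham libraries, 21.8, 25.7 and 25.6 CPM in the SCI libraries and a log2FC of 0.93 ± 0.18 (SE, edgeR adjusted p = 0.00761). It was not called when tested on FPKM.

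Among the genes that were lower, Hoxd8 had the smallest standard error. It had 26.3, 24.0 and 24.9 FPKM in the Sham libraries and 11.9, 14.1 and 14.6 FPKM in the SCI libraries, with a log2FC of -0.90 ± 0.09 (SE, edgeR adjusted p = 0.00142), and it remained called under all 16 alternatives. Hoxd1 had the largest change called. It is the 3' gene of HoxD and is also known from sensory neurons of the dorsal root ganglion. It had 2.09, 4.70 and 3.86 FPKM in the Sham libraries and 0.743, 0.436 and 0.381 FPKM in the SCI libraries, with a log2FC of -2.73 ± 0.43 (SE, edgeR adjusted p = 0.00368). Sham replicate 2 was its highest library, as it was for the ganglion markers, whose part in this difference was not tested. Hoxb5 fell from 11.5, 8.41 and 7.22 FPKM to 4.05, 4.07 and 3.21 FPKM, with a log2FC of -1.27 ± 0.24 (SE, edgeR adjusted p = 0.00645). Hoxb9 fell by 2.17 ± 0.49 on the log2 scale (SE, edgeR adjusted p = 0.0119) and Hoxb8 fell by 1.30 ± 0.31 (SE, edgeR adjusted p = 0.0144). Without Sham replicate 1 both remained called, with log2FC of -1.77 and -0.95. Hoxa7 had 9.59, 8 and 8.82 FPKM in the Sham libraries and 4.97, 5.71 and 5.26 FPKM in the SCI libraries. Its log2FC was -0.74 ± 0.12 (SE, edgeR adjusted p = 0.00424). Hoxc8 had 6.56, 8.54 and 8.93 FPKM in the Sham libraries and 3.98, 5.76 and 5.31 FPKM in the SCI libraries. Its log2FC was -0.70 ± 0.16 (SE, edgeR adjusted p = 0.0137). Hoxb7 was the smallest change called, with 15.1, 15.3 and 13.3 FPKM against 9.68, 11.9 and 12.8 FPKM and a log2FC of -0.37 ± 0.11 (SE, edgeR adjusted p = 0.0311). In every one of these genes the SCI libraries lay below the Sham libraries. In CPM the same held for 13 Hox genes, beside 5517 of all 17822 genes tested.

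Cell type markers moved in the same comparison, where 24.3% of all genes were called higher and 25.0% lower. All 8 neuron genes were called lower in the SCI group, and 6 of them without Sham replicate 1, with sums of 3070 to 6190 CPM in the Sham libraries and 590 to 1890 CPM in the SCI libraries. The oligodendrocyte genes were called lower in 5 of 6 cases, with and without Sham replicate 1, with sums of 58200 to 81800 CPM in the Sham libraries and 17100 to 32700 CPM in the SCI libraries. All 6 fibroblast genes were called higher, and 5 without Sham replicate 1 (all but Lum), with sums of 380 to 1850 CPM against 3300 to 4940 CPM. The part of these cell types in the Hox differences was not tested. Removing only the listed muscle and adipocyte marker genes before normalization left 14 Hox genes called. That fit tested 17813 genes, against 17822 with the markers kept, so it could hardly differ. The part of muscle or fat tissue in the Hox calls was not tested.

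**Figure D4:**
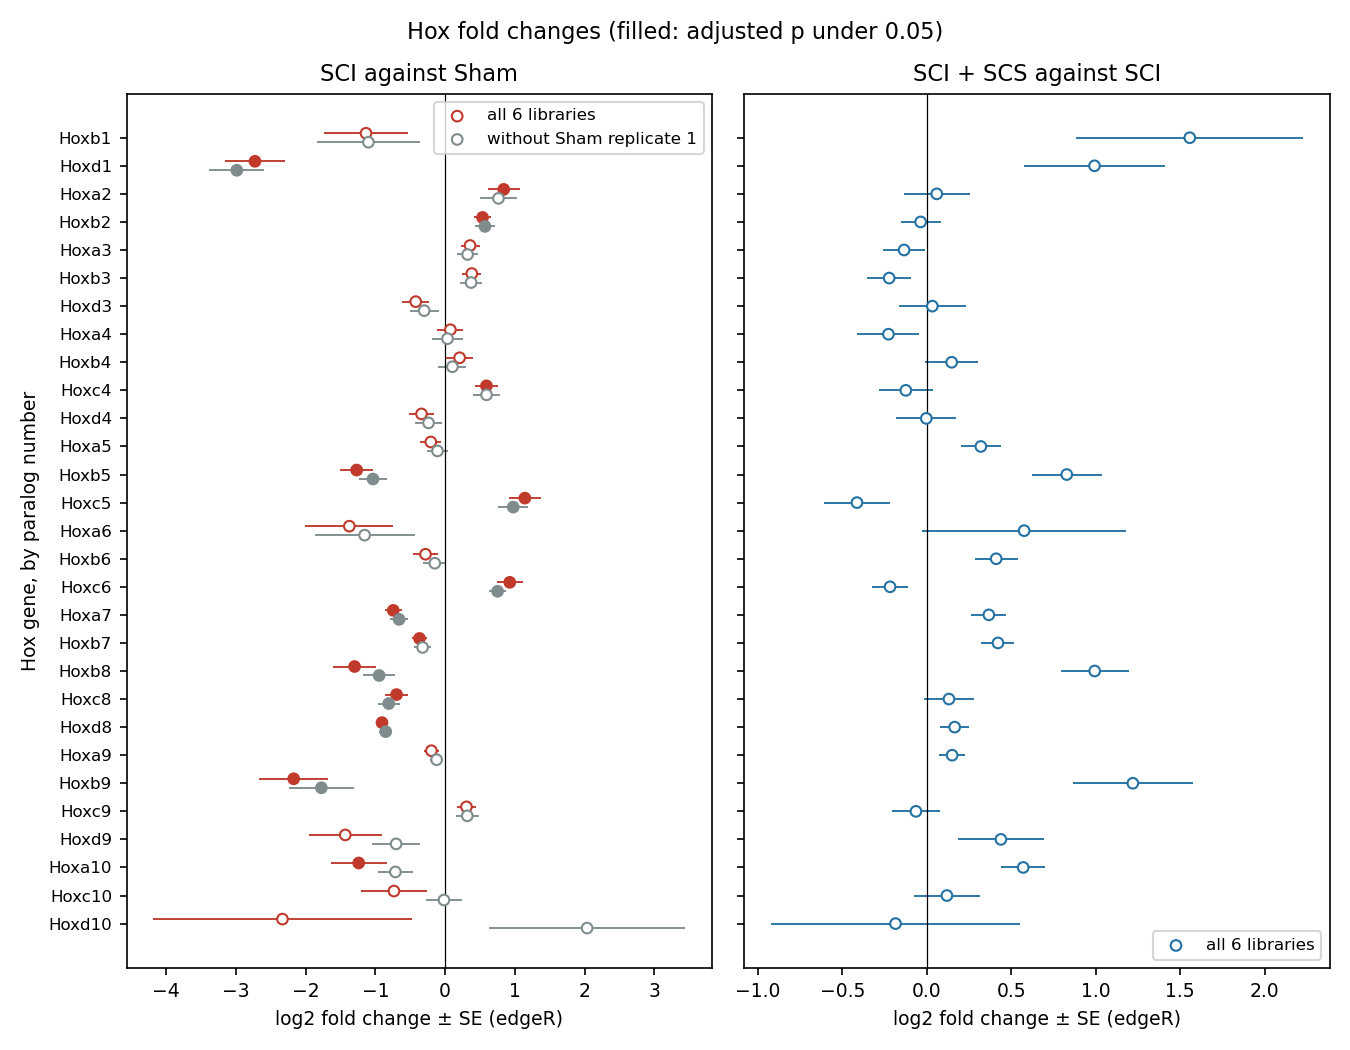
The x axis gives the log2 fold change ± SE from edgeR and the y axis tested Hox genes by paralog number, for SCI against Sham (left, with and without Sham replicate 1) and SCI + SCS against SCI (right), with filled points for an adjusted p under 0.05. On the left, filled points lie to the right at Hoxa2, Hoxb2 and Hoxc4 to Hoxc6 and to the left at Hoxd1, Hoxb5 and 7 genes of paralogs 7 to 10, and on the right 0 points are filled.

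In the SCI + SCS group 0 of 30 Hox genes were called relative to the SCI group by edgeR, beside 0.00566% of the 17663 genes tested, which is 1 gene. At an unadjusted p under 0.05, 9 Hox genes passed, all of them higher in the SCI + SCS group, beside 24.2% of all genes in either direction. The median log2FC was 0.15 over the Hox genes and -0.01 over all genes. Every SCI + SCS library lay above every SCI library for 9 Hox genes, beside 15.7% of all genes, and below for 1 Hox gene, beside 13.9%. Those above were Hoxa5, Hoxa7, Hoxa9, Hoxa10, Hoxb5, Hoxb6, Hoxb7, Hoxb8 and Hoxb9, all in HoxA and HoxB and of paralogs 5 to 10, and the one below was Hoxb3. DESeq2, the tool that the study's methods name, called 6 Hox genes higher, beside 6.50% of the 22094 genes it tested, namely Hoxb5, Hoxa7, Hoxb7, Hoxb8, Hoxb9 and Hoxa10. It called 0 lower.

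The SCI + SCS means of Hoxb5, Hoxa7, Hoxb8, Hoxa9, Hoxb9 and Hoxa10 lay between those of the SCI and Sham groups in CPM. Without Sham replicate 1 this held for Hoxb5, Hoxa7, Hoxb9 and Hoxa10. Hoxb8 then had 87.6 CPM against 84.1 CPM in the other Sham libraries, and Hoxa9 had 30.3 CPM against 29.5 CPM. The means of Hoxa5, Hoxb6 and Hoxb7 lay above the Sham group. Hoxb8, given above, had a log2FC of 0.99 ± 0.20 (SE, edgeR adjusted p = 0.08) and a DESeq2 adjusted p of 0.000234, with adjusted p up to 0.291 over its 16 alternatives. Hoxb9 had a log2FC of 1.22 ± 0.36 (SE, edgeR adjusted p = 0.115). Hoxb5 had 5.42, 7.27 and 8.07 FPKM in the SCI + SCS libraries, with a log2FC of 0.83 ± 0.21 (SE, edgeR adjusted p = 0.0946). Hoxb6 had 20.2, 17.7 and 18.4 FPKM in the SCI libraries and 24.1, 25.7 and 27.5 FPKM in the SCI + SCS libraries, and its Sham libraries at 26.2, 23 and 19 FPKM overlapped with both. Hoxb7 had 14.5, 16.3 and 16.2 FPKM in the SCI + SCS libraries, with a log2FC of 0.42 ± 0.10 (SE, edgeR adjusted p = 0.0885). Hoxa7 had 7.17, 7.37 and 6.52 FPKM there, with a log2FC of 0.37 ± 0.10 (SE, edgeR adjusted p = 0.108). Hoxa10 had a log2FC of 0.57 ± 0.13 (SE, edgeR adjusted p = 0.0872). Hoxa5 had 5.51, 8.57 and 6.72 FPKM in the SCI libraries and 8.91, 8.77 and 8.69 FPKM in the SCI + SCS libraries, a difference of 0.32 ± 0.12 on the log2 scale (SE). Hoxa9 had a log2FC of 0.15 ± 0.08 (SE). Hoxb3, the gene below, had 4.05, 4.97 and 5.91 FPKM in the SCI libraries and 4.46, 4.50 and 4.06 FPKM in the SCI + SCS libraries, where the groups overlapped in FPKM and not in CPM. The same neuron genes summed to 1660 to 2570 CPM in the SCI + SCS libraries. Of these neuron genes 0 of 8 were called relative to the SCI group, beside 0.00566% of all genes. Their part in the Hox values was not tested.

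Relative to the Sham group, 7 Hox genes were called in the SCI + SCS group. Higher were 4 of 30, Hoxa2, Hoxb2, Hoxc4 and Hoxc6, beside 16.2% of the 17640 genes tested. Lower were 3 of 30, Hoxd1, Hoxc8 and Hoxd8, also beside 16.2% of all genes. The median log2FC was -0.09 over the Hox genes and 0.01 over all genes, and it was 0.09 over the Hox genes without Sham replicate 1. Without that library 5 were called, 2 higher (12.9% of all genes) and 3 lower (11.9% of all genes). Hoxa2 and Hoxc4 then lost their call (edgeR adjusted p = 0.0542 and 0.0593). Without Sham replicate 2, only Hoxd8 was called, lower, beside 5.41% of all genes. Without SCI + SCS replicate 1, 2 or 3, the counts were 2, 3 and 2, beside 12%, 15.7% and 18.8% of all genes. Hoxd8 had 14.2, 16.3 and 16 FPKM in the SCI + SCS libraries, all below the Sham libraries, with a log2FC of -0.73 ± 0.10 (SE, edgeR adjusted p = 0.00522). Hoxd1 had 0.682, 1.41 and 1.19 FPKM, with a log2FC of -1.72 ± 0.38 (SE, edgeR adjusted p = 0.0185). Hoxc8 had 5.34, 6.15 and 5.25 FPKM, with a log2FC of -0.55 ± 0.15 (SE, edgeR adjusted p = 0.0326). Hoxa2 had 4.95, 6.31 and 4.58 FPKM, with a log2FC of 0.91 ± 0.21 (SE, edgeR adjusted p = 0.0223), and Hoxb2 had 13, 12.5 and 14.8 FPKM, with a log2FC of 0.51 ± 0.10 (SE, edgeR adjusted p = 0.0149). Hoxc4 had 4.95, 4 and 4.39 FPKM and Hoxc6 21.4, 21.9 and 19.2 CPM, both above all Sham libraries. In CPM, all SCI + SCS libraries lay above all Sham libraries for 7 Hox genes, beside 4795 of all 17640 genes. They lay below for 6 Hox genes, beside 4584 of all genes. The HoxB genes of paralogs 5 to 9 that were lower in the SCI group were not called here by edgeR with all 6 libraries. For Hoxb8 the log2FC was -0.29 ± 0.26 (SE), and its sign turned to 0.06 without Sham replicate 1. For Hoxb9 it was -0.94 ± 0.36 (SE), and -0.54 without Sham replicate 1. Hoxb9 was called lower by DESeq2 (adjusted p = 0.0297) and without Sham replicate 3.

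Hox proteins bind DNA together with Pbx, Meis and Pknox proteins. Of 9 such cofactor genes, all tested, 2 were called higher and 2 lower in the SCI group relative to the Sham group, beside 24.3% and 25.0% of all genes. Without Sham replicate 1 Meis1 lost its call, beside 20.0% of all genes called higher and 20.6% lower then. Meis3, a cofactor active in hindbrain patterning, had 17.6, 14.7 and 11.8 CPM in the Sham libraries and 32.3, 41.4 and 33.1 CPM in the SCI libraries, with a log2FC of 1.26 (edgeR adjusted p = 0.00292). Meis2, with 26.5, 22.2 and 17.8 CPM against 14.3, 13.3 and 9.70 CPM, had a log2FC of -0.85 (edgeR adjusted p = 0.0161), and Meis1 had one of -0.51 (edgeR adjusted p = 0.03). The genes that set Hox borders in the embryo include Cdx factors, Gdf11 and the retinoic acid pathway. Of 11 such genes 8 were tested, and 4 were called higher and 0 lower (24.3% and 25.0% of all genes), all 4 also without Sham replicate 1. These were the retinoic acid receptors Rara, Rarb and Rarg, with log2FC of 1.55, 0.87 and 1.39, and the retinoic acid degrading enzyme Cyp26b1, with one of 1.78. The fit without Sham replicate 1 tested 9 of the 11 genes and called 5 higher and 0 lower (20.0% and 20.6% of all genes). The added call was Cyp26c1, with 0 counts in Sham replicates 2 and 3 and 11, 45 and 33 counts in the SCI libraries. Cdx4 had 0 counts in all 9 libraries, and Cdx1 and Cdx2 were not tested with all 6 libraries. Cdx1 was tested without Sham replicate 1 and was not called. Aldh1a2, which makes retinoic acid, was not called and had 7.19 CPM in Sham replicate 1 against 64.8 to 173 CPM in the other 8 libraries.

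Of 16 Polycomb and trithorax genes, which hold Hox genes silent or active, 2 were called higher (Eed and Ring1) and 2 lower (Bmi1 and Kmt2a) in the SCI group relative to the Sham group, against the same shares of all genes. Kmt2a lost its call without Sham replicate 1. Their summed levels were 549 to 559 CPM in the Sham libraries and 521 to 561 CPM in the SCI libraries. Kmt2a, the trithorax gene that keeps Hox genes active, had 15.9, 20.8 and 17.1 CPM against 6.10, 13.3 and 10.4 CPM, with a log2FC of -0.87 (edgeR adjusted p = 0.0425). Of 10 genes of spinal motor columns and segment-restricted neurons, 2 were called higher (Foxp1 and Pou3f1) and 4 lower (Nos1, Chat, Isl1 and Lhx1), again beside 24.3% and 25.0%. Foxp1 and Chat lost their calls without Sham replicate 1. Nos1 had 0.818, 4.03 and 1.27 CPM in the Sham libraries and 0.305, 0.44 and 0.202 CPM in the SCI libraries. Isl1 had 0.582, 2.4 and 0.343 CPM against 0.0381, 0 and 0 CPM. Both were highest in Sham replicate 2, as the ganglion markers were, and the part of ganglion tissue in these calls was not tested. Chat, which makes acetylcholine in motor neurons, had 34.3 CPM in Sham replicate 1 and 11.9 and 11.7 CPM in the other Sham libraries. In the SCI libraries it had 7.07, 3.19 and 1.29 CPM. In the SCI + SCS group 0 genes of these 4 lists were called relative to the SCI group, beside 0.00566% of all 17663 genes tested.

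The clusters also hold microRNA genes, and 5 of the 8 other rows inside the cluster spans were of that type. The miR-196 family lies beside the Hox9 genes of HoxA, HoxB and HoxC and is known to act on Hox transcripts, Hoxb8 among them. Its mature sequences (RefSeq) are printed to show that the family shares 1 seed, bases 2 to 8, given in capitals.
rno-miR-196b-5p: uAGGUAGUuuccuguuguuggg
rno-miR-196a-5p: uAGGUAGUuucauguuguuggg
rno-miR-196c-5p: uAGGUAGUuucguguuguuggg
The libraries were made from polyadenylated RNA, so a count on these rows is not a level of mature microRNA. The row of Mir196b, in HoxA between Hoxa9 and Hoxa10, had 19, 22 and 16 counts in the Sham libraries, 6, 10 and 5 counts in the SCI libraries and 11, 14 and 13 counts in the SCI + SCS libraries. These raw counts are not scaled to library size and were not tested. The library total was 88358570 counts in Sham replicate 3 and 62844376 counts in SCI + SCS replicate 3. Mir196a, Mir196c, Mir10a and Mir10b had at most 2 counts in any library, under the floor of 3 counts.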

How the data were processed

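RNA was measured in the spinal cord of 9 rats, 3 per group, grouped by the condition that the labels name. The authors enriched polyadenylated RNA with oligo(dT) beads and sequenced it from both ends. The submitters' processing notes name fastp 0.23.2, HISAT2 2.2.1 and the build mRatBN7.2. The counting program, its strand setting and the annotation are not given in the sources used here. The authors deposited raw counts per gene without normalization, and a second deposited table with FPKM, counts per length of gene and per total of the library.

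Groups were compared on the counts in R 4.3.3 with edgeR 4.0.16 (TMM, filterByExpr, quasi-likelihood test) over the 6 libraries of the comparison, without covariates and with Benjamini-Hochberg adjustment over all genes. The SE of a log2FC is |log2FC| over the square root of edgeR's F. The study's methods name DESeq2, which was an alternative (1.42.0). limma 3.58.1 tested log2(FPKM + 1) and log2(FPKM + 0.1) where the mean FPKM reached 0.1, a scale that understates the change of low genes. The tests were tested on simulated data. Mean paralog number and the share of paralogs 10 to 13 were weighted by FPKM and not tested.

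The Hox genes and all lists were chosen with earlier results of these data known. Values per library are given for Hox genes called in any comparison (at most 12, by smallest p), all genes of paralogs 9 and 10, the highest gene of each cluster, and genes whose SCI and SCI + SCS libraries do not overlap. From other lists at most 4 called genes were given with values, and Aldh1a2, Cdx1, Cdx2, Cdx4 and Cyp26c1 were named after their values were seen. Certain genes that the rule or the lists select are not reported here. Nothing states that the rats came from separate experiments, so p-values measure the spread between these samples. With 3 rats against 3, an exact permutation test cannot give a p under 0.1. Positions of start regions and microRNAs are those of RefSeq on GRCr8 and were not mixed with the positions of the files.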

Additional observations from a re-analysis of the deposited data

How the results depend on the processing

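The Hox calls were recomputed under 10 alternative settings and with each library left out. For SCI against Sham (14 Hox genes called), leaving out 1 library gave 9 to 14, with 9 without Sham replicate 2. Over all genes it gave 6091 to 8363 calls, beside 8796 with all libraries of the comparison. For SCI + SCS against SCI (0 called), DESeq2 gave 6, with the cause not tested, and every other alternative gave 0. DESeq2 called 2550 of all 22094 genes there. For SCI + SCS against Sham (7 called), leaving out 1 library gave 1 to 9. Over all genes it gave 2149 to 6637 calls, beside 5710 with all libraries of the comparison. The labels give same-numbered rats no link but the number. The correlations of their deviations from the group means lay between -0.328 and 0.24. Whether such rats shared a batch was not tested. With the replicate block, 13, 0 and 2 Hox genes were called in the 3 comparisons in this order. Over all genes the block gave 8701 of 17822, 0 of 17663 and 1259 of 17640. With FPKM as weights and 1 library left out, the mean paralog number of the SCI group differed from the Sham group by -0.768 to -0.384. With log2(FPKM + 1) as weights and all libraries it differed by -0.311. With these weights and without Sham replicate 1, the mean was 6.37 in the Sham group and 6.30 in the SCI group. With FPKM as weights, the mean paralog number of the SCI + SCS group differed from the SCI group by 0.251. The difference was 0.0633 with log2(FPKM + 1) as weights and 0.134 without Hoxb8. The share of paralogs 10 to 13 differed there by -0.608 percentage points (-1.17 to 0.259 with 1 library left out). Without Hoxb8 it differed by 0.599 percentage points.

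The log2FC of 5 Hox genes, none of them called under any setting in the comparisons named here, turned its sign. With 1 library left out, Hoxd10 ranged from -3.50 to 2.04 in SCI against Sham, from -0.66 to 0.98 in SCI + SCS against SCI and from -3.08 to 1.87 in SCI + SCS against Sham. In SCI + SCS against SCI, Hoxd10 also gave 0.20 with the replicate block and 0.053 and 0.25 by limma with pseudocounts 1 and 0.1, and in SCI + SCS against Sham 0.16 with the replicate block and 0.0083 by limma with pseudocount 0.1. In SCI + SCS against SCI, Hoxc9 ranged from -0.158 to 0.037 and Hoxc10 from -0.055 to 0.30 with 1 library left out. In SCI + SCS against Sham, Hoxb8 ranged from -0.48 to 0.06, Hoxc10 from -0.93 to 0.12 and Hoxa9 from -0.071 to 0.041, and Hoxa9 gave 0.0037 and 0.0041 by limma. Of 766 values of named Hox genes under an alternative, 670 kept their sign and side of the threshold, 64 lost a call, 14 gained one and 18 changed sign.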
